A study of Homo sapiens with 15 samples.

Results

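Interferon-stimulated genes are the genes a cell switches on when interferon binds its receptors, and 46 of them, chosen by symbol, are described here out of the 61552 genes of a counts table for MDA-MB-468, a basal-like triple-negative breast cancer cell line. All 46 symbols matched an Ensembl gene ID of the table. RNA sequencing had been done on 15 libraries, 3 replicates in each of 5 groups, to separate transcription that depends on nuclear epidermal growth factor receptor (nEGFR) from transcription that depends on EGFR kinase activity. EGF, cSNX and ERL were cultures of the parental line that were starved of serum for 12 h and stimulated with 10 ng/mL EGF. EGF received nothing else, cSNX received 10 μM cSNX1.3, a peptide that blocks binding of EGFR to Sorting Nexin 1 and lowers nuclear EGFR, and ERL received 15 μM erlotinib, an EGFR tyrosine kinase inhibitor, each for 12 h. shEGFR-WT and shEGFR-NLS were lines whose own EGFR was knocked down by a lentiviral short hairpin RNA induced with 1 mM IPTG for 2 days beforehand and throughout, and which then carried an introduced EGFR-GFP fusion, either wildtype or with 3 residues of the nuclear localization signal (NLS) mutated. Both lines were also given EGF. Each line is 1 line, so a difference between them belongs to these lines, and the labels do not say whether replicates were separate cultures, so p-values measure only the spread between these libraries.

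Interferons bind receptors on the cell surface, kinases of the JAK family then phosphorylate transcription factors of the STAT family, and a complex of these with IRF9 binds the interferon-stimulated response element (ISRE) in promoters. Type II interferon acts through a second element, the gamma-activated site (GAS), and IRF1 also reads the ISRE. The products interfere with nearly every step of viral infection, from entry through translation and RNA decay to budding, and in tumor cells a raised level of the same genes without added interferon is a known state. The members were grouped as 4 IFIT proteins, 4 OAS proteins, 2 MX GTPases, 3 IFITM proteins, 5 genes of the ISG15 conjugation system, 8 other antiviral effectors, 5 RNA sensors and helicases, 5 genes of the PARP and DTX3L group, 5 genes named IFI, and 5 regulators and others.

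Promoter sequence was given for 36 of the 46 members in RefSeq's GRCh38.p14 table, as the 250 bases before each start site and 50 bases from it. An ISRE core, written TTTCNNTTTC on one strand and GAAANNGAAA on the other, was found on either strand in 24 of the 36 windows (66.7%), against 3.65% of 27305 promoters of the same length, and 14 members held 2 or more, counting overlapping matches. A GAS core (TTCNNNGAA), which can overlap an ISRE core, was found in 9 of the 36 (25.0%), against 7.88% of all promoters. The 30-base stretches that follow are read 5′ to 3′ on each gene's strand, with the ISRE cores in capitals, and were chosen for members on which the comparisons turn. IFIT1 (chr10:89392504-89392533, plus strand), IFI44 (chr1:78649761-78649790, plus), MX1 (chr21:41420559-41420588, plus) and DDX60 (chr4:168318821-168318850, minus) are members that were lower with cSNX1.3. ISG20 (chr15:88638937-88638966, plus) and SAMD9 (chr7:93118096-93118125, minus) were higher with it. IFI27 (chr14:94110625-94110654, plus), IFI6 (chr1:27672329-27672358, minus) and BST2 (chr19:17405738-17405767, minus) were higher in both lines than in the parental cells, although the IFI27 values of shEGFR-NLS and EGF overlapped. ISG15 (chr1:1013377-1013406, plus) is shown as the namesake.
IFIT1: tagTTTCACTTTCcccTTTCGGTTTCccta
IFI44: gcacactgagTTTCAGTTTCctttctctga
MX1: gagcagaaatGAAACCGAAActgaattgtc
DDX60: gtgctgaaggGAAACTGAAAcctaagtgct
ISG20: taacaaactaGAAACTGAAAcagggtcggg
SAMD9: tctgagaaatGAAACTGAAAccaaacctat
IFI27: cagTTTCGGTTTCctgGAAAATGAAAccta
IFI6: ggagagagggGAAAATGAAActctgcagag
BST2: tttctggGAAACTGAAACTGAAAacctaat
ISG15: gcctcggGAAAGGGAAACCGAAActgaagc
IFIT1, IFI27, BST2 and ISG15 show 2 cores within 30 bases, and those of BST2 and of ISG15 overlap. The core in MX1 lay after the annotated start site, centred 15.5 bases downstream. OAS1, RSAD2, SAMD9L, CMPK2, HERC6, IFI35, PARP9, HELZ2, RIGI, SP110, UBE2L6 and XAF1 had no match to these letters in their windows. No window was in the table for DHX58, IFIT2, IFITM2, IRF7, MX2, OAS2, OASL, PARP10, TRIM22 and USP18.

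The libraries held 22915676 to 35900649 counts. Levels are given as CPM, a gene's count relative to its library's total after trimmed mean of M-values (TMM) scaling over all 15 libraries, and are listed for replicates 1, 2 and 3. The word "called" means an adjusted p under 0.05 in edgeR. The targeted gene EGFR stood at 4917, 4318 and 4963 CPM in EGF, at 1424, 1146 and 1450 CPM in shEGFR-WT and at 1688, 1746 and 1746 CPM in shEGFR-NLS, counts that include any reads of the introduced receptor. All 9 markers of basal-like breast epithelium were present in every library. However, 2 of them were higher and 0 lower with cSNX1.3 (against 3.38% and 2.69% of all genes). With erlotinib 1 was higher and 5 lower (against 22.8% and 21.2%). In shEGFR-NLS against shEGFR-WT 1 was higher and 7 lower (against 20.4% and 21.0%). Against EGF, 4 were higher and 2 lower in shEGFR-WT (against 23.4% and 23.7%), and 0 higher and 6 lower in shEGFR-NLS (against 18.9% and 18.3%). Of 13 immune markers, 6 had at most 3 counts in every library and PTPRC, the pan-leukocyte antigen, at most 7, while CD14 had 291, 248 and 248 counts in cSNX, 386, 492 and 372 in EGF, 1389, 927 and 1184 in ERL, 774, 1162 and 955 in shEGFR-WT and 1454, 1216 and 1104 in shEGFR-NLS. The summed level of the immune list was 12.2 to 16.8 CPM in cSNX, 17.2 to 22.96 in EGF, 42.9 to 46.4 in ERL, 28.7 to 41.7 in shEGFR-WT and 41.5 to 46.7 in shEGFR-NLS. CD14 was lower in cSNX (-0.57) and higher in ERL (1.33) than in EGF, and higher in shEGFR-NLS than in shEGFR-WT (0.42), as log2 fold changes. The other 2 immune markers with enough counts to test were NCAM1, which was higher with erlotinib (1.36) and in shEGFR-NLS against shEGFR-WT (1.43), and ITGAM, which was lower with erlotinib (-0.78). Of 5 endothelial markers tested, 1 was higher with cSNX1.3 (against 3.38% of all genes) and 1 in shEGFR-NLS against shEGFR-WT (against 20.4%). With erlotinib 2 were higher and 1 lower, against 22.8% and 21.2% of all genes. The fibroblast marker COL1A1 was lower with erlotinib (-0.39) and in shEGFR-NLS against shEGFR-WT (-0.31). The part of these markers in the results was not tested. RNA came from whole cultures, so fewer cells expressing a gene and less RNA per cell cannot be told apart. Reads were counted without regard to strand, and members that share exon bases with other annotated genes, on either strand, are uncertain. Among those that follow, the largest overlap was on the same strand for RIGI, IFITM1 and IFI6. It was on the opposite strand for XAF1 and SP110. RIGI shares 43.2% of its exon bases, XAF1 38.3%, IFITM1 31.6%, IFI6 23.1% and SP110 19.4%, and the counts of RIGI, 4 to 23 in a library, were too low to follow this sensor.

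In EGF the members spanned 4 orders of magnitude in level per kilobase of exon. IFITM3, which blocks virus entry at endosomal membranes, was the highest at 95.7 CPM per kb, followed by UBE2L6, the conjugating enzyme for ISG15, at 48.4 and the phospholipid scramblase PLSCR1 at 38.7. ISG15 itself, the ubiquitin-like modifier, stood at 28.7 and BST2 (tetherin), which holds budding virus at the cell surface, at 16.4 CPM per kb. At the other end were MX2 at 0.0406, IFI44L at 0.0189 and EPSTI1 at 0.00768 CPM per kb. EPSTI1 had 0, 2 and 1 counts in the EGF libraries, 1, 0 and 5 in cSNX, 3, 8 and 13 in ERL, 19, 23 and 15 in shEGFR-WT and 7, 5 and 2 in shEGFR-NLS. IFI44L had 6, 3 and 8 counts in EGF, 2, 3 and 0 in cSNX and 2, 12 and 2 in ERL, and with IFI27 and EPSTI1 it was too low for the test of the parental cultures. Across the 5 groups, the mean level was highest in shEGFR-WT for 35 of the 46 members, against 21.4% of the 16524 genes tested over all libraries, and lowest in cSNX for 31 of the 46, against 26.7% of those genes.

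**Figure D1:**
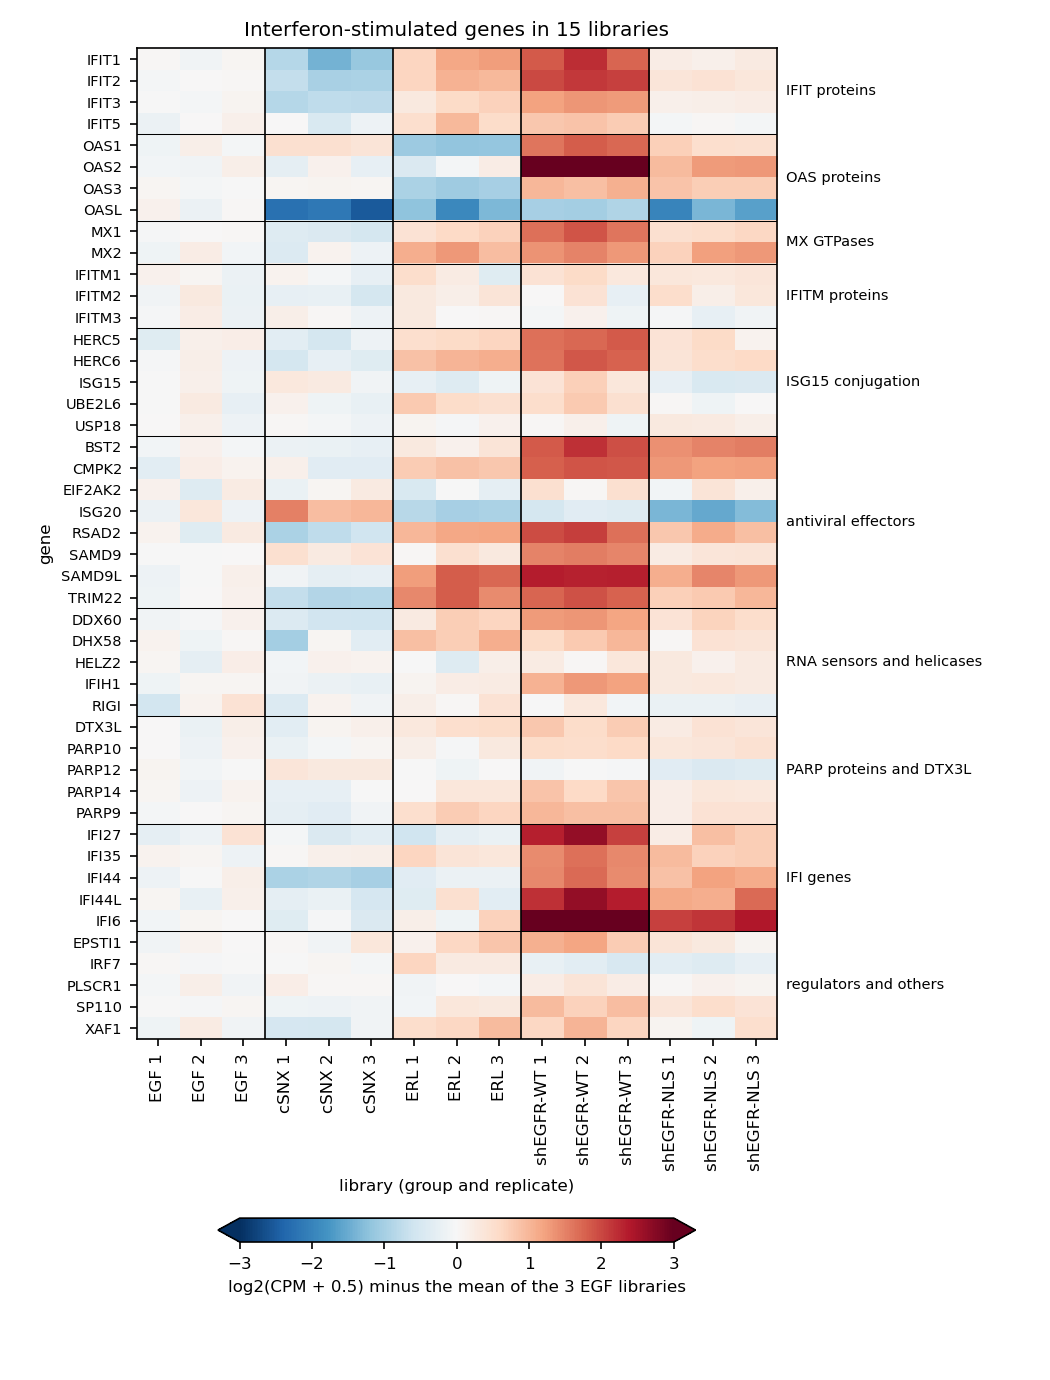
Level of each of the 46 interferon-stimulated genes in each of the 15 libraries, as log2(CPM + 0.5) minus the mean of the 3 EGF libraries, with members grouped by role and color limits at -3 and 3. Most rows are reddest in the 3 shEGFR-WT libraries, where the mean was highest for 35 of 46 members, while OASL, ISG20 and IRF7 were called lower than EGF in both lines.

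The first comparison, cSNX against EGF, asks what changes when the peptide is added to EGF. None of the groups received cPTD4, the control peptide of the paper's other assays. What belongs to cSNX1.3 and what to adding any peptide therefore cannot be told apart. IFIT1, IFIT2, IFIT3, OASL, MX1, IFI44, DDX60, RSAD2 and TRIM22 were lower with cSNX1.3, whereas ISG20, OAS1 and SAMD9 were higher, so that of the 8 antiviral effectors 2 were lower and 2 higher. Of the 43 members tested, 9 were called lower at an adjusted p under 0.05 in edgeR (20.9%, against 2.69% of 15738 genes) and 3 were called higher (6.98%, against 3.38%). The median log2 fold change was -0.20 over the members and 0.00 over all genes, and 31 of 43 members had a value below 0. Of the 4 IFIT genes, whose proteins bind foreign RNA and restrain its translation, 3 were lower. IFIT1 (ENSG00000185745, chr10:89392546-89406487) measured 3.49, 3.13 and 3.59 CPM in EGF and 1.65, 0.960 and 1.28 CPM in cSNX, 2.63-fold lower (log2 fold change -1.40 ± 0.238 (SE), adjusted p = 0.0016). IFIT2 measured 10.4, 10.8 and 11.1 CPM and 6.37, 5.26 and 5.33 CPM, 1.91-fold lower (log2 fold change -0.93 ± 0.139 (SE), adjusted p = 0.00055). IFIT3, the partner that stabilizes IFIT1, went from 17.0, 16.6 and 18.2 CPM to 9.30, 9.89 and 9.85 CPM (log2 fold change -0.83 ± 0.123 (SE), adjusted p = 0.00052). For each of these 3 genes every cSNX library lay below every EGF library, and IFIT5 had a log2 fold change of -0.20 that did not pass the test (adjusted p = 0.57).

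OAS genes encode synthetases of short oligoadenylates that activate RNase L, except OASL, which lacks that activity and enhances signaling by the RNA sensor RIG-I. OASL (ENSG00000135114, chr12:121017763-121039246) showed the largest difference of any member with cSNX1.3. It measured 10.5, 8.40 and 9.73 CPM in EGF against 1.60, 1.75 and 1.24 CPM in cSNX, 6.24-fold lower (log2 fold change -2.64 ± 0.217 (SE), adjusted p = 2.4e-06). OAS1 (ENSG00000089127, chr12:112905856-112933219) moved the other way, from 32.7, 40.5 and 34.3 CPM to 50.3, 49.95 and 46.8 CPM (log2 fold change 0.46 ± 0.094 (SE), adjusted p = 0.0073). Neither gene's groups overlapped, and OAS2 and OAS3 had log2 fold changes of -0.15 and 0.07 that did not pass the test. MX1, a GTPase that traps viral nucleocapsids, fell from 32.3, 33.7 and 34.0 CPM to 25.2, 24.4 and 22.995 CPM (log2 fold change -0.46 ± 0.096 (SE), adjusted p = 0.0075).

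Among the other effectors, TRIM22, a ubiquitin ligase that represses viral transcription, went from 7.68, 8.56 and 9.25 CPM in EGF to 4.95, 4.38 and 4.45 CPM in cSNX (log2 fold change -0.89 ± 0.145 (SE), adjusted p = 0.0012). RSAD2 (viperin), a radical enzyme that makes a chain-terminating nucleotide, went from 2.14, 1.41 and 2.44 CPM to 0.779, 0.960 and 1.13 CPM (log2 fold change -1.04 ± 0.256 (SE), adjusted p = 0.021). In both genes all cSNX values were below all EGF values. ISG20 (ENSG00000172183, chr15:88635670-88656483), an exonuclease that degrades single-stranded RNA, rose from 11.3, 16.3 and 11.4 CPM to 37.3, 24.8 and 26.0 CPM, 2.26-fold higher (log2 fold change 1.18 ± 0.161 (SE), adjusted p = 0.00026). SAMD9, a restriction factor for poxviruses, rose from 47.2, 47.4 and 48.1 CPM to 66.4, 57.6 and 63.6 CPM (log2 fold change 0.40 ± 0.107 (SE), adjusted p = 0.036). The groups of ISG20 and of SAMD9 did not overlap either, although the spread of ISG20 in cSNX was wide. IFI44, a cytoplasmic protein of the IFI group, went from 14.2, 15.5 and 17.7 CPM in EGF to 7.92, 8.14 and 7.59 CPM in cSNX (log2 fold change -1.001 ± 0.122 (SE), adjusted p = 0.00011). DDX60, a helicase that promotes RNA sensing, went from 11.3, 11.8 and 13.3 CPM to 9.02, 8.01 and 7.77 CPM (log2 fold change -0.55 ± 0.141 (SE), adjusted p = 0.026).

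No member of the ISG15 conjugation system, of the IFITM group or of the PARP and DTX3L group passed the edgeR test with cSNX1.3. At an unadjusted p under 0.05 these groups held 1, 0 and 2 members, and DESeq2 called 1 of them, PARP12. ISG15 had a log2 fold change of 0.18, USP18, which removes ISG15 and restrains the type I receptor, -0.06, and IFITM3 0.02. XAF1, a proapoptotic partner of XIAP, had a log2 fold change of -1.34 but only 5, 11 and 6 counts in EGF and 1, 1 and 6 in cSNX (adjusted p = 0.28). Some calls were lost in edgeR on leaving out 1 library, where the calls over all genes also went from 956 to between 526 and 892. SAMD9 was lost whichever EGF or cSNX library was left out (adjusted p from 0.058 to 0.12), with log2 fold changes of 0.36 to 0.44. OAS1 was lost without EGF replicate 1 (0.067, leaving 1 member higher). RSAD2 was lost without EGF replicate 1 or 3 or cSNX replicate 1 or 2 (0.063 to 0.12), and DDX60 without EGF replicate 1 or 3 or cSNX replicate 2 or 3 (0.0501 to 0.13). Scaling by library totals alone changed the calls over all genes from 532 higher and 424 lower to 370 and 559, and those of the members from 3 and 9 to 2 and 9.

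**Figure D2:**
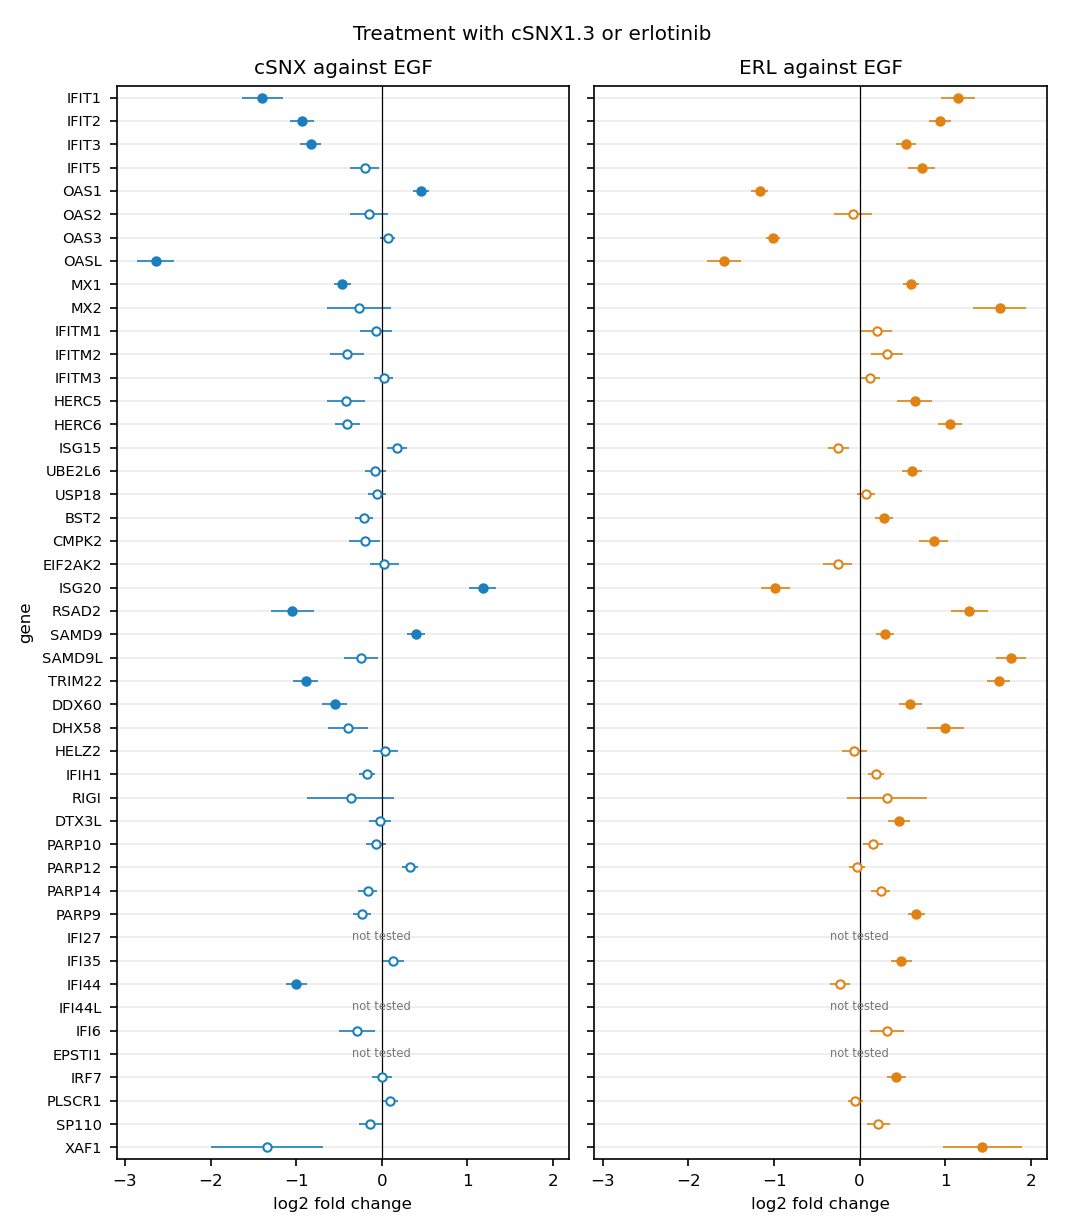
Log2 fold change of each member in cSNX against EGF (left) and ERL against EGF (right), as the edgeR estimate with its standard error, where filled points passed an adjusted p of 0.05 and open points did not. With cSNX1.3 the filled points are 9 below 0 and 3 above, and with erlotinib 22 above and 4 below.

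The second comparison, ERL against EGF, asks the same of kinase inhibition, and it shares its EGF libraries with the first. Most called members were higher with erlotinib, and OAS1, OAS3, OASL and ISG20 were lower. Of the 43 tested, 22 were called higher (51.2%, against 22.8% of 15738 genes) and 4 lower (9.30%, against 21.2%), and the median was 0.32 over the members against 0.01 over all genes. All 4 IFIT genes were higher, from 0.54 for IFIT3 to 1.15 for IFIT1, and IFIT1 measured 5.57, 8.23 and 8.75 CPM in ERL. Both MX genes were higher, and MX2, which blocks nuclear entry of retroviral genomes, rose from 0.493, 0.764 and 0.518 CPM in EGF to 1.81, 2.17 and 1.55 CPM in ERL (log2 fold change 1.64 ± 0.312 (SE), adjusted p = 0.00054). SAMD9L, the neighbor and paralog of SAMD9, rose from 2.75, 3.06 and 3.52 CPM to 8.12, 12.2 and 11.4 CPM, 3.41-fold (log2 fold change 1.77 ± 0.176 (SE), adjusted p = 9.7e-07). TRIM22 measured 24.0, 30.9 and 23.3 CPM in ERL, 3.08-fold above EGF (log2 fold change 1.62 ± 0.132 (SE), adjusted p = 1.1e-07). RSAD2 measured 4.42, 5.03 and 5.08 CPM (log2 fold change 1.28 ± 0.214 (SE), adjusted p = 0.00017). In these 4 genes the lowest ERL library was above the highest EGF library.

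With erlotinib 3 of the 4 OAS genes went down. OASL measured 3.83, 2.13 and 3.42 CPM in ERL, 2.998-fold below EGF (log2 fold change -1.58 ± 0.195 (SE), adjusted p = 9e-06). OAS1 measured 16.5, 15.4 and 15.6 CPM, 2.25-fold below EGF (log2 fold change -1.17 ± 0.098 (SE), adjusted p = 1.5e-07), and OAS3 had a log2 fold change of -1.01 ± 0.085 (SE). OAS2 did not pass the test (-0.08, adjusted p = 0.8). ISG20 measured 6.97, 6.14 and 6.39 CPM (log2 fold change -0.99 ± 0.170 (SE), adjusted p = 0.00024), and the ERL and EGF values of OASL, OAS1, OAS3 and ISG20 did not overlap. OASL was thus lower in both treatments, while OAS1 and ISG20 lay on opposite sides of EGF in cSNX and in ERL.

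Of the ISG15 system, the ligases HERC5 (0.64) and HERC6 (1.05) and UBE2L6 (0.61) were higher with erlotinib, and ISG15 (-0.25) and USP18 (0.07) did not pass the test. The helicases DHX58 (1.001) and DDX60 (0.59), the ADP-ribosyltransferase PARP9 (0.66) with its partner DTX3L (0.46), the mitochondrial nucleotide kinase CMPK2 (0.86), BST2 (0.29), SAMD9 (0.30), IFI35 (0.49), XAF1 (1.43) and IRF7 (0.43), the factor that drives interferon alpha genes, were higher as well, as log2 fold changes. Calls of BST2, HERC5, SAMD9 and XAF1 were lost without EGF replicate 1 (0.13, 0.1, 0.085 and 0.081) and without ERL replicate 3 (0.16, 0.059, 0.088 and 0.093), and those of BST2, SAMD9 and XAF1 also without 1 or more of EGF replicates 2 and 3 and ERL replicates 1 and 2 (up to 0.16), all edgeR adjusted p. Scaling by library totals alone changed the calls over all genes from 3589 higher and 3343 lower to 4496 and 2370, shifted the median of all genes to 0.11, and gave 24 members higher and 4 lower.

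Set directly against each other, cSNX and ERL differed at 33 of the 43 members, 28 lower in cSNX (65.1%, against 28.5% of 15738 genes) and 5 higher (11.6%, against 27.6%), with a median of -0.61 against -0.01 over all genes. The largest differences among members that averaged at least 1 CPM were IFIT1 (-2.54 ± 0.226, SE), TRIM22 (-2.51 ± 0.141), RSAD2 (-2.33 ± 0.237), SAMD9L (-2.01 ± 0.181) and MX2 (-1.90 ± 0.324), all lower in cSNX, and ISG20 (2.16 ± 0.169), higher in cSNX. XAF1 had -2.78 ± 0.559 on the few counts given above and 21, 17 and 28 counts in ERL. ISG20 covered 37.3, 24.8 and 26.0 CPM in cSNX and 6.97, 6.14 and 6.39 CPM in ERL, a 4.48-fold gap, and TRIM22 covered 4.95, 4.38 and 4.45 CPM and 24.0, 30.9 and 23.3 CPM, a 5.70-fold gap in the other direction. SAMD9L measured 2.84, 2.504 and 2.56 CPM in cSNX and MX2 0.321, 0.668 and 0.474 CPM, both below every ERL library. OAS1 (1.62), OAS3 (1.08), ISG15 (0.43) and PARP12 (0.36) were the others that were higher in cSNX. OASL, lower than EGF in both groups, was lower still in cSNX than in ERL (log2 fold change -1.06 ± 0.230 (SE), adjusted p = 0.001). With library totals alone, calls over all genes went from 4336 higher and 4488 lower to 2923 and 5852, the median of all genes went to -0.18 and ISG15 and PARP12 were no longer called, so that 3 members were higher and 31 lower. Without ERL replicate 1 or cSNX replicate 1 the call of IFI35 was lost (edgeR adjusted p 0.11 and 0.071), without ERL replicate 3 or cSNX replicate 3 that of IFI6 (0.16 and 0.073), and without any of ERL replicates 2 and 3 and cSNX replicates 1 to 3 that of SP110 (0.069 to 0.13).

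The third comparison, shEGFR-NLS against shEGFR-WT, asks what differs when the introduced receptor carries the mutated localization signal. EGFR itself was called higher in shEGFR-NLS (log2 fold change 0.37, against 20.4% of all genes called higher). The mutated signal and the level of EGFR RNA therefore cannot be told apart here. Interferon-stimulated genes were lower in shEGFR-NLS in nearly every role group. All 46 members could be tested, and 36 were called lower (78.3%, against 21.0% of 15805 genes) and 1 higher (2.17%, against 20.4%), with a median log2 fold change of -0.73 against 0.01 over all genes. All 4 IFIT genes, all 4 OAS genes and all 5 IFI genes were lower, as were 7 of 8 antiviral effectors, 4 of 5 in the ISG15 system, 4 of 5 PARP and DTX3L genes, 4 of 5 regulators and others, 3 of 5 sensors and helicases and 1 of 2 MX genes. None of the 3 IFITM genes was called in edgeR or DESeq2 or had an unadjusted p under 0.05, with log2 fold changes from -0.12 to 0.30.

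IFI27, a mitochondrial protein of the IFI group, measured 4.04, 5.10 and 3.21 CPM in shEGFR-WT and 0.548, 1.17 and 0.996 CPM in shEGFR-NLS, 4.56-fold lower (log2 fold change -2.19 ± 0.249 (SE), adjusted p = 3.1e-06). OAS2 measured 30.6, 33.0 and 30.7 CPM and 6.49, 8.38 and 8.43 CPM, 4.06-fold lower (log2 fold change -2.02 ± 0.106 (SE), adjusted p = 5.3e-10). IFIT1 measured 13.4, 17.6 and 12.5 CPM against 4.07, 3.85 and 4.20 CPM (log2 fold change -1.85 ± 0.139 (SE), adjusted p = 2.9e-08). Every shEGFR-NLS value of these genes lay below every shEGFR-WT value. IFIT2 went from 43.8, 48.7 and 46.1 CPM to 13.9, 14.8 and 13.8 CPM (log2 fold change -1.71 ± 0.082 (SE), adjusted p = 2.4e-10). HERC5, the main ligase that attaches ISG15 to new proteins, went from 8.93, 9.43 and 10.3 CPM to 3.49, 3.97 and 2.74 CPM (log2 fold change -1.48 ± 0.140 (SE), adjusted p = 4e-07). IFI44L, a paralog of IFI44 next to it on chromosome 1, went from 2.75, 3.92 and 3.15 CPM to 1.07, 1.02 and 1.81 CPM (log2 fold change -1.35 ± 0.227 (SE), adjusted p = 0.00017). The separation was complete in these 3 as well.

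The 9 members called lower with cSNX1.3 were all among the 36 called lower in shEGFR-NLS, all of the former list and 25.0% of the latter, and these comparisons share no library. Since 78.3% of all members were lower in shEGFR-NLS, nothing particular to the 9 is read from this overlap. The 3 called higher with cSNX1.3 were among the same 36 (8.33% of them). MX1 measured 106, 124 and 103 CPM in shEGFR-WT and 46.8, 48.1 and 51.8 CPM in shEGFR-NLS, TRIM22 29.4, 33.4 and 30.2 CPM and 14.1, 14.9 and 17.3 CPM, and RSAD2 9.06, 9.84 and 7.17 CPM and 3.84, 4.84 and 4.09 CPM, each with its groups apart. OASL was lower by less, 4.50, 4.46 and 4.87 CPM against 2.02, 3.36 and 2.74 CPM (log2 fold change -0.77 ± 0.174 (SE), adjusted p = 0.002). ISG20 measured 8.67, 10.1 and 9.71 CPM and 4.64, 4.07 and 4.87 CPM (log2 fold change -1.07 ± 0.123 (SE), adjusted p = 3.4e-06), OAS1 110.3, 127 and 118 CPM and 59.0, 50.4 and 49.9 CPM, and SAMD9 134, 138 and 131 CPM and 56.1, 61.2 and 62.1 CPM. For these 3 genes the line with the mutated signal lay below its control, whereas the peptide-treated culture lay above its own.

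USP18 was the only member called higher in shEGFR-NLS, at 25.9, 25.5 and 23.8 CPM against 21.6, 23.2 and 19.1 CPM (log2 fold change 0.24 ± 0.09 (SE), adjusted p = 0.047). That call was lost under DESeq2 and whichever library was left out except shEGFR-WT replicate 2 (edgeR adjusted p 0.064 to 0.24), and without shEGFR-WT replicate 2 there were 2 members called higher. Members not called were IFITM1, IFITM2, IFITM3, MX2, PARP10, HELZ2, RIGI, EIF2AK2 and IRF7. EIF2AK2 (PKR), a kinase that halts translation on sensing double-stranded RNA, measured 105, 75.9 and 104 CPM and 70.4, 97.8 and 83.0 CPM, overlapping groups (-0.18, adjusted p = 0.32). Of the calls of lower level, OAS3 was lost without shEGFR-NLS replicate 2 or 3 or shEGFR-WT replicate 1 or 3 (adjusted p 0.064 to 0.1), PLSCR1 without shEGFR-NLS replicate 1 or 3 or shEGFR-WT replicate 1 or 2 (0.058 to 0.12) and XAF1 without shEGFR-NLS replicate 1 or 2 or shEGFR-WT replicate 2 (0.093 to 0.11). With library totals alone, calls over all genes went from 3226 higher and 3312 lower to 3953 and 2529, and those of the members from 1 and 36 to 1 and 34.

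**Figure D3:**
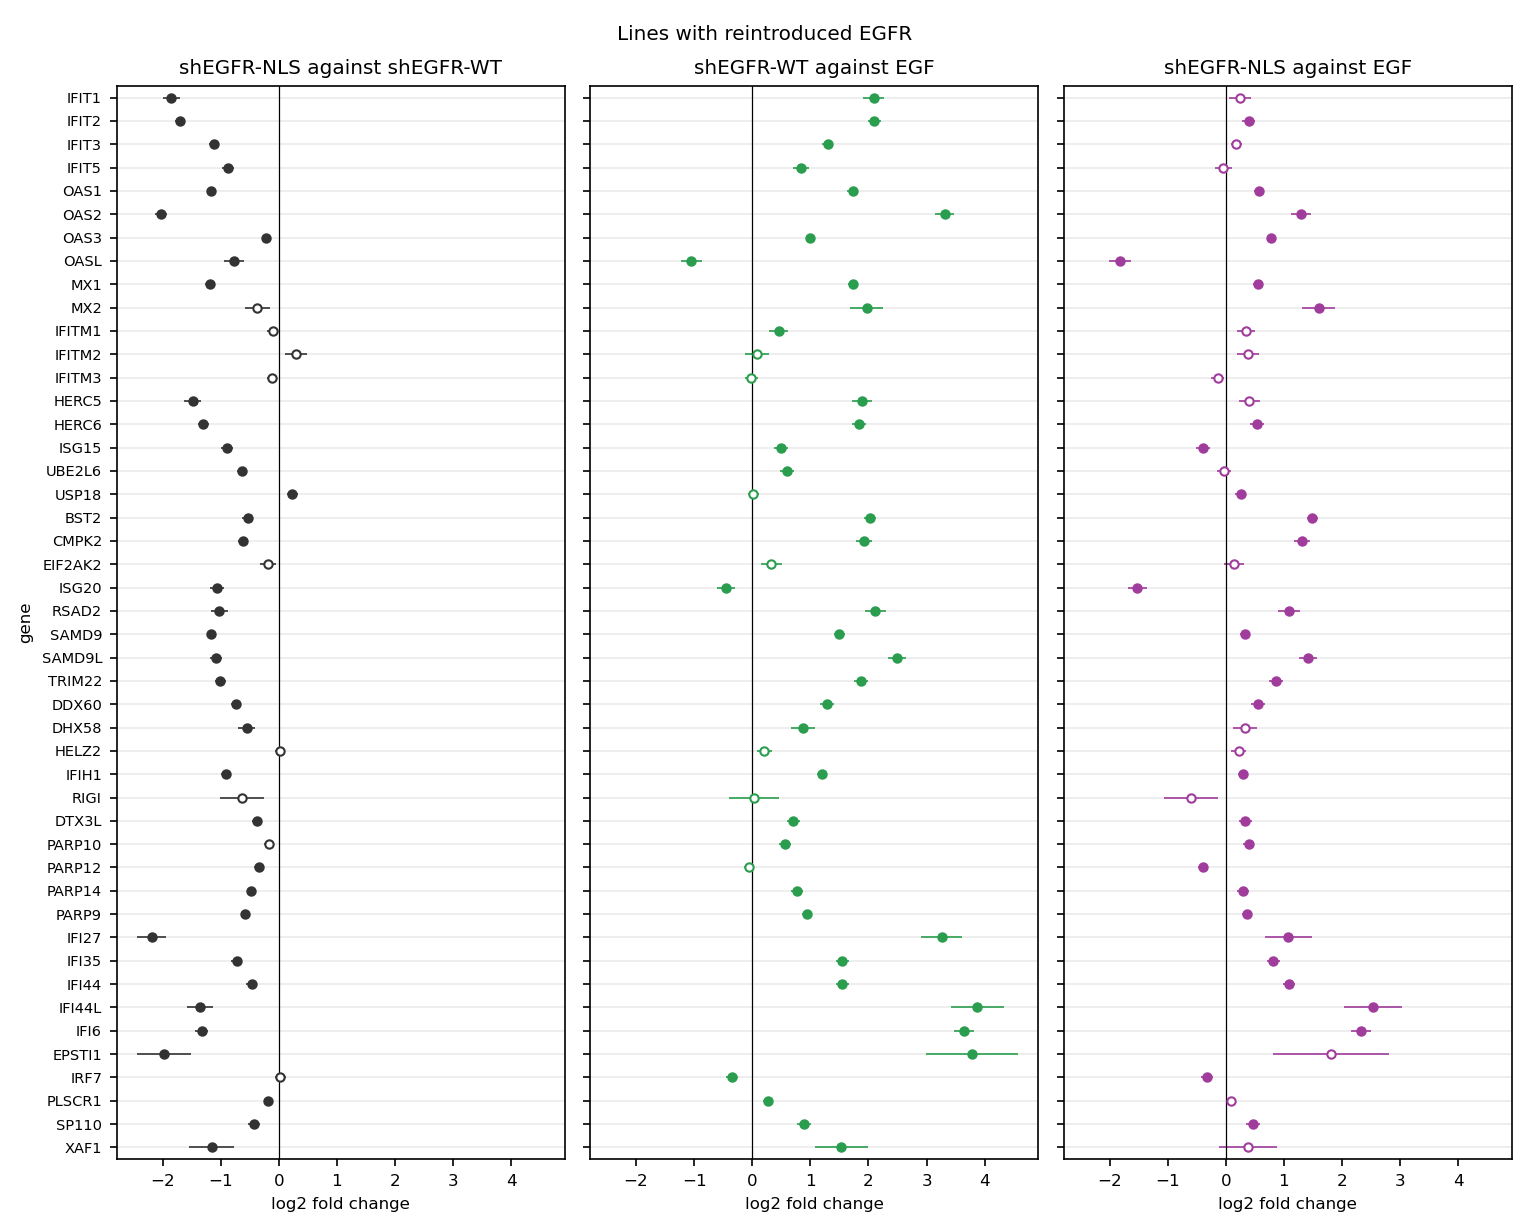
Log2 fold change of each member in shEGFR-NLS against shEGFR-WT, shEGFR-WT against EGF and shEGFR-NLS against EGF, as the edgeR estimate with its standard error, filled where the adjusted p was under 0.05. In the left panel 36 filled points lie below 0 and 1 above, and in the middle panel 36 lie above and 3 below.

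Both lines were then set against the parental cells given EGF. These groups differ in the hairpin, the fusion, IPTG and selection as well as in the receptor, and the EGF dose, serum starvation and treatment time of the lines are not given in the sources used here, so what each contributes cannot be told apart. In shEGFR-WT, 36 of 46 members were called higher (78.3%, against 23.4% of 16524 genes) and 3 lower (6.52%, against 23.7%), with a median of 1.24 against -0.01 over all genes. The IFI genes stood furthest out, with all 5 higher and a median of 3.26. IFI6, which protects cells from virus at the endoplasmic reticulum, measured 4.44, 4.97 and 4.81 CPM in EGF and 53.8, 68.4 and 56.4 CPM in shEGFR-WT, 12.5-fold higher (log2 fold change 3.65 ± 0.172 (SE), adjusted p = 1.4e-12). IFI44L rose 14.7-fold in the fit (log2 fold change 3.88 ± 0.459 (SE), adjusted p = 6.7e-07), from the few counts given above to 83, 124 and 114 counts. IFI27 rose from 0.246, 0.306 and 0.703 CPM to 4.04, 5.10 and 3.21 CPM (log2 fold change 3.26 ± 0.352 (SE), adjusted p = 1.7e-07). In all 3 the lowest shEGFR-WT library was several times the highest EGF library.

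OAS2 rose from 2.96, 2.90 and 3.59 CPM to 30.6, 33.0 and 30.7 CPM, 9.95-fold (log2 fold change 3.31 ± 0.162 (SE), adjusted p = 1.4e-12). SAMD9L measured 17.8, 17.2 and 17.7 CPM in shEGFR-WT (log2 fold change 2.49 ± 0.154 (SE), adjusted p = 3.9e-11), and RSAD2, at the CPM given above, had log2 fold change 2.12 ± 0.183 (SE), adjusted p = 6.9e-09. EPSTI1, a stromal interaction gene of breast cancer, had 57 counts over the 3 shEGFR-WT libraries and 3 over the EGF libraries, a ratio of 15.04 after scaling for library size, with a 95% exact binomial interval of 4.89 to 75.1 that covers counting error only. In shEGFR-NLS it had 14 counts, a ratio of 3.80 (1.06 to 20.6). That difference from EGF did not pass the edgeR test (log2 fold change 1.81 ± 1.003 (SE), adjusted p = 0.17), and the groups overlapped. The 3 members lower in shEGFR-WT were OASL (-1.05 ± 0.180, SE), ISG20 (-0.46 ± 0.154) and IRF7 (-0.35 ± 0.107). Not called were IFITM2, IFITM3, USP18, PARP12, HELZ2, RIGI and EIF2AK2, of which IFITM3 was the most abundant member per kilobase and measured 265, 313 and 238 CPM in EGF and 260.1, 297 and 248 CPM in shEGFR-WT.

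In shEGFR-NLS against EGF, 26 members were called higher (56.5%, against 18.9% of 16524 genes) and 5 lower (10.9%, against 18.3%), with a median of 0.38 against 0.00 over all genes. IFI6 measured 21.1, 22.8 and 27.4 CPM (log2 fold change 2.32 ± 0.170 (SE), adjusted p = 3e-09), BST2 47.2, 51.5 and 53.3 CPM against 17.1, 19.7 and 17.3 CPM in EGF (log2 fold change 1.49 ± 0.1003 (SE), adjusted p = 6.3e-10), and SAMD9L 7.12, 9.49 and 8.33 CPM (log2 fold change 1.41 ± 0.158 (SE), adjusted p = 5.5e-07). MX2 measured 1.24, 2.03 and 2.17 CPM (log2 fold change 1.60 ± 0.288 (SE), adjusted p = 0.00017). In each of these 4 every shEGFR-NLS library lay above every EGF library and below every shEGFR-WT library, although the difference of MX2 between the lines did not pass the test (-0.37, adjusted p = 0.18). IFIT1 (0.25), IFIT3 (0.18) and IFIT5 (-0.04) did not pass the test here. Lower than EGF were OASL (log2 fold change -1.82 ± 0.191 (SE), adjusted p = 2.5e-07), ISG20 (log2 fold change -1.52 ± 0.165 (SE), adjusted p = 3.8e-07), PARP12 (-0.40), ISG15 (-0.39) and IRF7 (-0.32). OASL and ISG20 were therefore below the parental EGF cultures in both lines, at lower levels in shEGFR-NLS than in shEGFR-WT.

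In shEGFR-WT against EGF, calls lost in edgeR on leaving out 1 library were IFITM1 (EGF replicate 3 or shEGFR-WT replicate 1 or 2, adjusted p 0.052 to 0.1), IRF7 (shEGFR-WT replicate 3, 0.083), ISG20 (EGF replicate 2 or shEGFR-WT replicate 1, 0.17 and 0.078) and PLSCR1 (EGF replicate 1 or 3 or shEGFR-WT replicate 2, 0.057 to 0.067). In shEGFR-NLS against EGF they were DTX3L, IFI27, IFIH1, IRF7, ISG15, PARP14 and USP18, with 3 rather than 5 members lower without shEGFR-NLS replicate 2, where ISG15 had 0.074 and IRF7 0.091. Without EGF replicate 1 the values were 0.056 for DTX3L, 0.16 for IFI27, 0.075 for IFIH1, 0.07 for IRF7 and 0.096 for USP18, and without EGF replicate 2 0.12 for PARP14. Leaving out EGF replicate 2 also ended the calls of DTX3L, IFI27 and ISG15, EGF replicate 3 those of IRF7 and USP18, shEGFR-NLS replicate 1 those of IRF7 and USP18, shEGFR-NLS replicate 2 those of DTX3L, IFI27, PARP14 and USP18, and shEGFR-NLS replicate 3 those of DTX3L, IFI27, ISG15, PARP14 and USP18, with adjusted p up to 0.2. With library totals alone, calls over all genes in that comparison went from 3122 higher and 3022 lower to 3865 and 2098, and those of the members from 26 and 5 to 28 and 4.

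**Figure D4:**
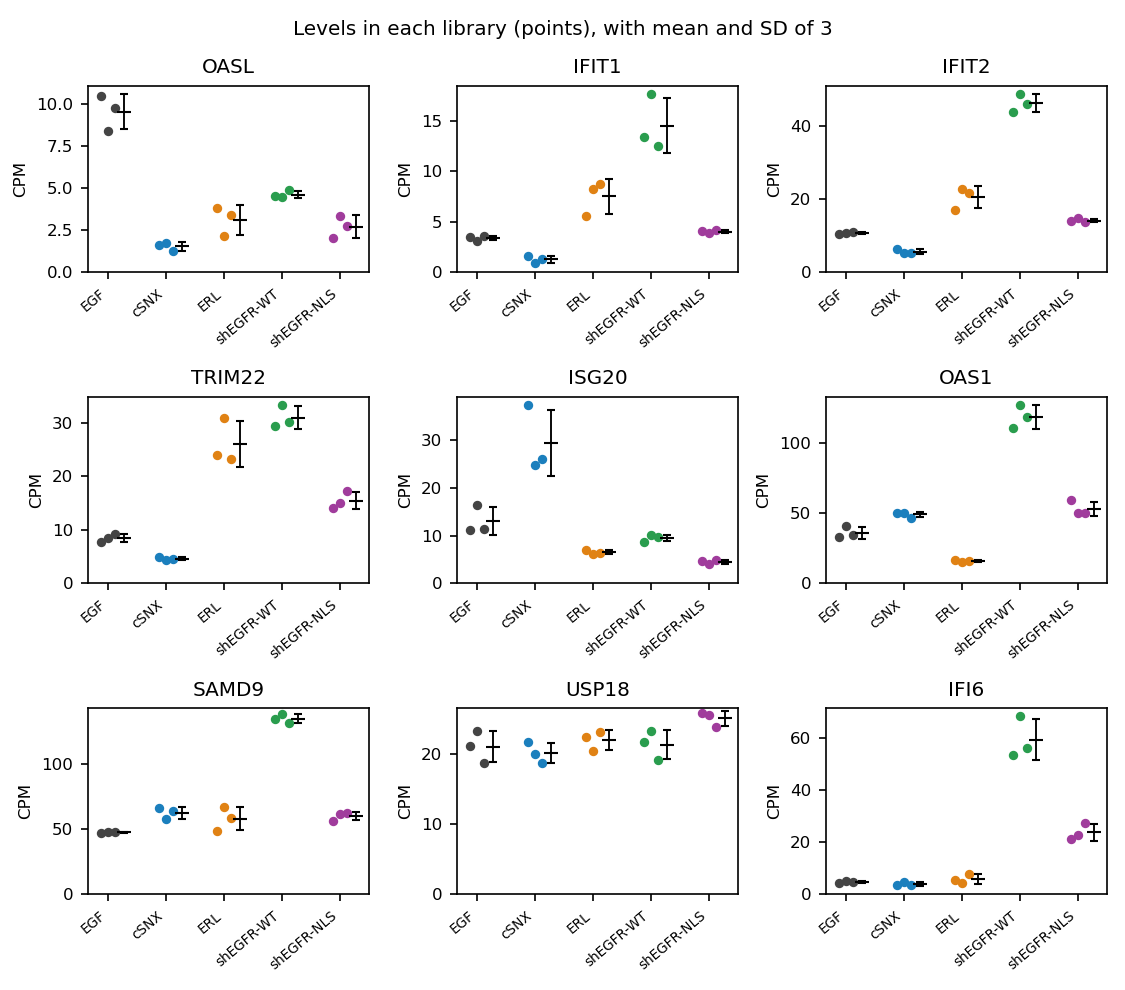
CPM of 9 members in each library, with the mean and SD of the 3 replicates in black beside the points. OASL is highest in EGF, ISG20 in cSNX, USP18 in shEGFR-NLS, and IFIT1, IFIT2, TRIM22, OAS1, SAMD9 and IFI6 in shEGFR-WT.

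The fold changes of shEGFR-NLS against shEGFR-WT and of cSNX against EGF were then compared, as their difference over all 15 libraries. Each line is 1 line and the lines differ from the parental cultures as given above, so a difference belongs to these cultures. Of the 46 members, 16 were more negative between the lines (34.8%, against 11.8% of 16524 genes) and 2 more positive (4.35%, against 11.3%), with a median of -0.31 against 0.02 over all genes. Of those more negative, ISG20 differed most (-2.24 ± 0.223, SE, adjusted p = 1.5e-07), then OAS2 (-1.87 ± 0.239, adjusted p = 4.5e-06), OAS1 (-1.61 ± 0.128, adjusted p = 6.2e-09), SAMD9 (-1.56 ± 0.131, adjusted p = 1.2e-08) and ISG15 (-1.06 ± 0.173, adjusted p = 9.2e-05). ISG15 measured 24.5, 27.6 and 22.5 CPM in EGF, 31.2, 30.05 and 23.1 CPM in cSNX, 32.9, 41.2 and 31.4 CPM in shEGFR-WT and 20.7, 18.0 and 18.3 CPM in shEGFR-NLS, so that it differed in the lines and not, beyond its spread, with the peptide. In OAS2 the cSNX values (2.52, 3.46 and 2.56 CPM) overlapped EGF. In the other direction, OASL was lower by more in cSNX against EGF than in shEGFR-NLS against shEGFR-WT (1.87 ± 0.292, adjusted p = 5.7e-05). The same held for IFI44 (0.54 ± 0.155, adjusted p = 0.014). IFIT1 (-0.45, adjusted p = 0.3), IFIT3 (-0.28, 0.16), RSAD2 (0.02, 0.97), TRIM22 (-0.12, 0.7) and DDX60 (-0.18, 0.5) were lower in both comparisons with no difference that passed the test. The call of IFI44 was lost without EGF replicate 3 (0.061) or shEGFR-NLS replicate 2 (0.052), leaving 1 member more positive, and those of IFIT5 and UBE2L6 without EGF replicate 1 (0.059 and 0.051) or cSNX replicate 1 (0.059 and 0.054), UBE2L6 also without EGF replicate 3 or either line's replicate 2 (up to 0.069), all edgeR adjusted p. With library totals alone, calls over all genes went from 1873 more positive and 1946 more negative to 2711 and 1373, with a median of 0.15, and those of the members from 2 and 16 to 4 and 15.

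**Figure D5:**
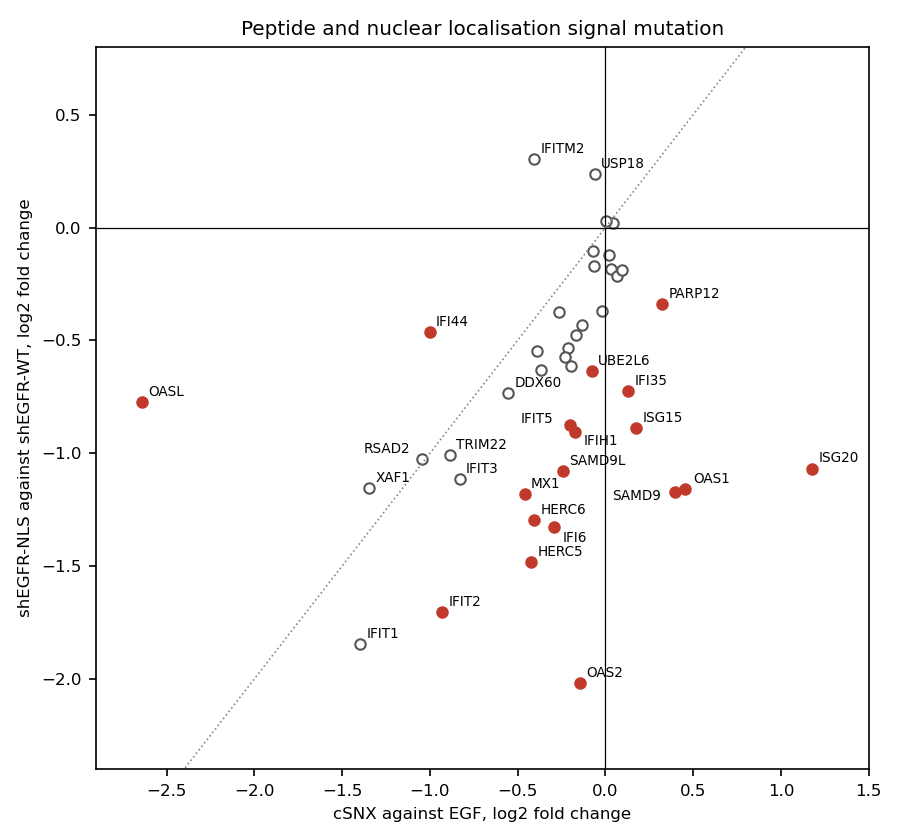
Log2 fold change in cSNX against EGF (horizontal) and in shEGFR-NLS against shEGFR-WT (vertical) for the 43 members tested in both, which share no library, with the dotted line marking equal values and red points the members whose difference passed an adjusted p of 0.05. OASL and IFI44 are the red points above the line, and ISG20, OAS1 and SAMD9 lie to the right of 0 and below it.

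The genes upstream of these members were followed in the same fits. All 22 interferon ligand genes were at or near 0. Of them, 14 had no count in any library and none exceeded 4 counts in a library. IFNB1, the first interferon that most infected cells make, had 0, 0 and 0 counts in EGF, 0, 0 and 0 in cSNX, 0, 0 and 3 in ERL, 0, 0 and 1 in shEGFR-WT and 1, 1 and 0 in shEGFR-NLS. IFNE, a constitutive epithelial interferon, had at most 2. The 6 receptor chains showed no call in shEGFR-NLS against shEGFR-WT (1 at an unadjusted p under 0.05, 0 in DESeq2), against 20.4% higher and 21.0% lower of all genes. With cSNX1.3 1 was lower (IFNGR1, -0.48), against 2.69% of all genes. With erlotinib IFNGR2 was lower (-1.54) and IFNGR1 higher (0.39), against 21.2% and 22.8%.

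Of 6 JAK-STAT transducers, STAT2 and IRF9 included, 5 were tested. None was called with cSNX1.3 (0 at an unadjusted p under 0.05, 0 in DESeq2), against 3.38% higher and 2.69% lower of all genes. With erlotinib 2 were higher and 0 lower, against 22.8% and 21.2%. In shEGFR-NLS against shEGFR-WT 1 was higher and 3 lower, against 20.4% and 21.0%. STAT2 was higher than EGF in both lines (0.56 and 0.62) and was not called between the lines (0.05, adjusted p = 0.7). IRF9 had 0 to 15 counts in a library and shares 23.9% of its exon bases with another gene on its strand, so its level could not be followed. IRF1 measured 31.3, 35.7 and 30.7 CPM in EGF, 51.4, 53.1 and 50.2 CPM in ERL, 54.1, 53.9 and 53.6 CPM in shEGFR-WT and 33.2, 32.2 and 35.9 CPM in shEGFR-NLS, higher in ERL (log2 fold change 0.67 ± 0.09 (SE), adjusted p = 2.2e-05) and in shEGFR-WT (log2 fold change 0.73 ± 0.08 (SE), adjusted p = 2.3e-07), and lower in shEGFR-NLS than in shEGFR-WT (log2 fold change -0.67 ± 0.073 (SE), adjusted p = 1.8e-06). With cSNX1.3 it had -0.06 (adjusted p = 0.79).

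Of 11 sensors and adaptors outside the members that were tested, none was called with cSNX1.3 in edgeR (3 at an unadjusted p under 0.05, 1 called in DESeq2). Over all genes 3.38% were higher and 2.69% lower. With erlotinib 2 of the 11 were higher and 5 lower, against 22.8% and 21.2% of all genes. In shEGFR-NLS against shEGFR-WT 2 were higher and 5 lower, against 20.4% and 21.0%. TLR3, the endosomal sensor of double-stranded RNA, was the one that rose most with erlotinib (2.11 ± 0.197, SE), followed by STING1 (1.06 ± 0.085). IFI16, a DNA sensor, had 13, 17 and 21 counts in EGF, 884, 855 and 1096 in shEGFR-WT and 199, 186 and 136 in shEGFR-NLS (log2 fold change -2.404 ± 0.102 (SE), adjusted p = 6e-11 between the lines). Of 7 negative regulators outside the members, SOCS3 was higher with cSNX1.3 (0.58 ± 0.107, SE) and the others were not called. With erlotinib 2 were higher and 3 lower (against 22.8% and 21.2% of all genes). Between the lines 2 were higher and 0 lower in shEGFR-NLS (against 20.4% and 21.0%). Of 7 IRF genes other than IRF7 and IRF9, IRF1 included, 5 were tested and none was called with cSNX1.3 (1 at an unadjusted p under 0.05, 0 in DESeq2). Of these 5, 2 were higher and 1 lower with erlotinib, and 1 was higher and 3 lower in shEGFR-NLS against shEGFR-WT, with the same shares over all genes.

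A list of 38 other interferon-stimulated genes, STAT2 included, was set beside the members. Of 34 tested with cSNX1.3, 3 were lower and none higher, against 2.69% and 3.38% of all genes. These were the guanylate-binding proteins GBP1 (-0.67 ± 0.146, SE) and GBP2 (-0.72 ± 0.093) and the chemokine CXCL10, which had 21, 13 and 20 counts in EGF and 2, 0 and 3 in cSNX. With erlotinib 12 were higher and 5 lower, against 22.8% and 21.2% of all genes, with GBP4 (1.81) and GBP2 (1.38) rising most and CXCL10 (-1.38) and PNPT1 (-0.74) falling most. Between the lines, 27 of 37 were lower in shEGFR-NLS and 1 was higher, against 21.0% and 20.4% of all genes, with a median of -0.48 over the 37. IDO1, the enzyme that degrades tryptophan, had 772, 799 and 987 counts in shEGFR-WT and 33, 34 and 35 in shEGFR-NLS, against 2, 1 and 5 in EGF. GBP5 had 69, 73 and 90 counts in shEGFR-WT, 3, 6 and 6 in shEGFR-NLS and 1, 0 and 0 in EGF. Both genes were near 0 in EGF and higher in the line with wildtype EGFR than in the line with the mutated signal.

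Members with and without an ISRE core in the promoter window were also described apart. In shEGFR-NLS against shEGFR-WT, 21 of the 24 with a core were lower (median -0.88) and 10 of the 12 without (median -0.68), against 21.0% of all genes. In shEGFR-WT against EGF, 20 of 24 and 10 of 12 were higher (medians 1.24 and 1.54, against 23.4% of all genes), and 1 and 0 were lower (against 23.7%). With cSNX1.3, 5 of the 21 tested members with a core were lower and 2 higher (median -0.17), and of the 12 without, 1 was lower and 1 higher (median -0.22), against 2.69% lower and 3.38% higher of all genes. With erlotinib, 9 of 21 and 8 of 12 were higher (medians 0.24 and 0.64, against 22.8% of all genes), and 2 and 1 were lower (against 21.2%). The ranges of the log2 fold changes of both groups overlapped in each comparison, and the difference between the groups was not tested.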

How the data were processed

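RNA-seq libraries of MDA-MB-468 cells, 3 in each of 5 groups, were analysed from the deposited counts table. Per their methods, the authors trimmed reads with TrimGalore, aligned them to GRCh38 with STAR and counted read pairs per gene with featureCounts without strand, and the deposited values are raw counts, which sum to 22915676 to 35900649 per library. The annotation release is not given in the sources used here. Of 61552 gene IDs, 61399 matched GENCODE 44, which gave symbols, coordinates and exon lengths. Groups came from the sample labels.

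Genes were filtered with filterByExpr, scaled by TMM and tested with edgeR 4.0.16 (robust quasi-likelihood, R 4.3.3), with Benjamini-Hochberg adjustment over all genes tested and a threshold of 0.05. The 3 parental groups were fitted together (9 libraries), the 2 lines together (6 libraries), and comparisons across both, with the interaction, in all 15 libraries. The standard error is the log2 fold change divided by the square root of F. On simulated data, cSNX against EGF (15738 genes) recovered 64 of 66 genes changed 4-fold, 52 of 67 changed 2-fold and 31 of 67 changed 1.5-fold. In shEGFR-NLS against shEGFR-WT (15805 genes) it recovered 64 of 66, 60 of 67 and 48 of 67. Medians over members and over all genes are given as description. Replicates differed beyond sampling noise (chi-square per degree of freedom at least 2.69), so none was treated as a duplicate.

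The members, gene lists and tests were chosen with earlier results of these data known. Values in every library are given for members called in cSNX against EGF, for the 6 called members with the largest change in each other comparison among those averaging at least 1 CPM with groups apart, and for members with at most 3 counts in every library of a group. USP18, EIF2AK2, IFITM3 and XAF1 and the other members given by library were added after their values were seen, as were IFI16, IDO1 and GBP5 where counts replace a fold. Alternatives were other scalings, filters and fits, DESeq2 1.42.0, the replicate number as a block and leaving out each library of the groups compared. Promoters are from RefSeq. 1 gene of the pathway lists is not reported here.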

Additional observations from a re-analysis of the deposited data

Results flagged for a closer look

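For 3 members the fold changes of cSNX against EGF and of shEGFR-NLS against shEGFR-WT had opposite signs, each called by itself. The difference between the 2 fold changes was called in edgeR. ISG20 was higher in cSNX than in EGF (1.18) and lower in shEGFR-NLS than in shEGFR-WT (-1.07), a difference of -2.24 ± 0.22 (SE, adjusted p = 1.5e-07). All 3 cSNX libraries were above all 3 EGF libraries, and all 3 shEGFR-NLS libraries were below all 3 shEGFR-WT libraries. OAS1 had log2 fold changes of 0.46 and -1.16, a difference of -1.61 ± 0.13 (adjusted p = 6.2e-09), with the same separation of libraries. Its call with cSNX1.3 was lost without EGF replicate 1 (edgeR adjusted p = 0.067). SAMD9 had 0.40 and -1.17, a difference of -1.56 ± 0.13 (adjusted p = 1.2e-08), again with groups apart, although its call with cSNX1.3 was lost whichever EGF or cSNX library was left out. The reason for these differences was not tested.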

How the results depend on the processing

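No called member changed sign under any of the alternatives run. Called under every alternative that tested them were 8 of 12 members with cSNX1.3, 22 of 26 with erlotinib, 28 of 33 in cSNX against ERL, 33 of 37 in shEGFR-NLS against shEGFR-WT, 35 of 39 and 24 of 31 in shEGFR-WT and shEGFR-NLS against EGF, and 15 of 18 for the difference of effects. A member that an alternative's filter left out, such as EPSTI1 where every library needed at least 10 counts, was not counted as lost there. Leaving out 1 library gave 1 to 2 members higher and 7 to 9 lower with cSNX1.3, 0 to 2 higher between the lines, 3 to 4 lower in shEGFR-NLS against EGF and 1 to 3 more positive for the difference of effects. Scaled by library totals alone, 3 members were higher in cSNX than in ERL and 4 more positive for the difference of effects. The single call of a higher member between the lines (USP18) became 0 under DESeq2, without a filter, in a fit of all 15 libraries and with the replicate block. The causes were not tested. Replicate numbers were not shown to pair the libraries, since no comparison had every same-numbered pair correlate over 0.1 in deviations from group means (-0.20 to 0.33), and not every library correlated best with its own number. With the replicate block the calls were 2 higher and 9 lower with cSNX1.3, 21 and 4 with erlotinib, 5 and 28 in cSNX against ERL, 0 and 34 between the lines, 36 and 3 and 27 and 5 for the lines against EGF, and 2 and 18 for the difference of effects. In the same order, the calls over all genes were 470 and 371, 3433 and 3274, 4257 and 4386, and 2827 and 2939. For the last 3 they were 3905 and 3998, 3166 and 3132, and 1942 and 1980. Depth limits EPSTI1, IFI44L, IFI27, XAF1, RIGI and MX2, which had few counts in the parental cultures.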

Other observations

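Several members lie next to each other in the genome (GRCh38, GENCODE 44), and neighbors did not always carry the same call. IFIT2, IFIT3, IFIT1 and IFIT5 follow each other on chromosome 10 between 89283694 and 89421605, and 3 of these 4 were called lower with cSNX1.3, 4 higher with erlotinib and 4 lower in shEGFR-NLS against shEGFR-WT. Over all genes the same calls held for 2.69%, 22.8% and 21.0%. OAS1, OAS3 and OAS2 follow each other on chromosome 12 between 112905856 and 113011723, where with erlotinib OAS1 (-1.17) and OAS3 (-1.01) were called lower and OAS2 (-0.08) was not, while between the lines OAS2 had the most negative value of the cluster (-2.02) and OAS3 the least (-0.22). SAMD9 and SAMD9L, 12032 bases apart on chromosome 7, had 0.30 and 1.77 with erlotinib and 0.40 (called) and -0.24 (not called) with cSNX1.3. MX2 and MX1, 10626 bases apart on chromosome 21, had -0.37 (not called) and -1.18 (called) between the lines. Differences between neighbors were not tested.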
